A study of Mus musculus with 7 samples.

Results

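The genes described are the nuclear genes for subunits of the mitochondrial respiratory chain and ATP synthase, with a few assembly factors whose symbols share the same stems. They were taken by symbol (Ndufa, Ndufb, Ndufc, Ndufs, Ndufv, Sdh, Uqcr, Atp5 and Cox followed by a number from 4 to 8), without -ps and Gm symbols, and had to average 10 or more counts over the wells. Of 20859 genes in the table, 107 matched these stems, 10 were left out as -ps or Gm symbols and 6 as too low, and 91 remained. They comprise 35 genes of complex I, 4 of complex II, 8 of complex III, 15 of complex IV and 17 of complex V, and 12 assembly factors. Just below the minimum were Cox8b (7.17 counts per well), Cox7b2 (4.83) and Ndufs6b (3.55), and just above it Cox6b2 (22), Cox7a1 (24.4) and Cox6c2 (25.7), while the median member had 1076. Cox4i1 was not analysed here.

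The respiratory chain passes electrons from NADH (complex I) and succinate (complex II) through complexes III and IV to oxygen. Complexes I, III and IV pump protons across the inner mitochondrial membrane as they do so, and the ATP synthase, complex V, uses the gradient to make ATP. Most subunits are encoded in the nucleus and imported, a few are encoded in mitochondrial DNA, and neurons, which restore ion gradients after each impulse, draw most of their ATP from this pathway.

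RNA was measured with mcSCRB-seq, which tags the 3' end of each transcript with a barcode per well, in cortex and hippocampus of transgenic mice that model familial Alzheimer's disease (FAD) and of wild-type (WT) mice. WT mice had been injected with PBS (9 cortices, 8 hippocampi), FAD IgG mice with a control IgG (7 and 7) and FAD CD38 mice with an injection that the labels name only CD38 (7 and 7). CD38 itself is an enzyme on the cell surface that breaks down NAD, and the study asked what targeting it changed in this model. The labels used here name neither the transgenic line and its promoter nor the age and sex of the mice. Genotype and injection differ together against WT and cannot be told apart, and both comparisons with WT use the same WT mice. One further mouse, of pool 8, had labels that conflict (IgG in the well name, CD38 in the sample sheet) and entered no comparison.

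The 47 wells from 24 mice, in 7 library pools, held 1270918 to 5101368 counts each. Regional markers set the regions apart, with hippocampal markers summing to 206 to 477 CPM (counts scaled to the well's total) in hippocampus and 41.4 to 80.9 in cortex. Choroid plexus markers were uneven. In hippocampus their highest sums were 15564 CPM in FAD CD38 (median 35.2), 8803 in FAD IgG (median 59.6) and 277 in WT (median 71.9). In cortex the highest sums were 1631 in FAD CD38, 136 in FAD IgG and 116 in WT. The hippocampus of WT replicate 9 (pool 8) stood apart. It was the lowest of 8 wells for 88 of the 91 members, only 1.90% of its counts fell in members, and its ribosomal RNA share of 17.2% was the only one above 15%. The hippocampus of FAD CD38 replicate 4 (pool 7) was the lowest of 7 for 66 members, and mitochondrially encoded protein genes took 1.25% of its counts against 5.02% in the median well of its group. The hippocampus of FAD IgG replicate 4 (pool 9) was the lowest of 7 for 77 members, with a ribosomal RNA share of 12.8%. In cortex, FAD IgG replicate 5 (pool 10) was the lowest of its group for 43 members, with a ribosomal RNA share of 12.4% and 1270918 counts. The cortex of FAD IgG replicate 4 was the lowest for 34, with a share of 10.6%. Among the other cortices, FAD CD38 replicate 4 was the lowest of its group for 54 members (6.83%) and WT replicate 8 for 53 (6.93%).

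Since most members shared a sign in cortex, promoters are shown for Ndufb6, which was called lower in both FAD groups there, for Atp5k and Sdhb, each called lower in 1 of the comparisons below, and for Atp5g2, whose estimate was above 0. The stretches are the 100 bases before the transcript start, from RefSeq on GRCm38.p6, which held a promoter for 77 of the 91 members. Capitals mark the core letters, on either strand, of the motif of NRF1, a transcription factor known for driving nuclear respiratory genes, and the longer capital runs hold overlapping matches on both strands. Ndufb6 (chr4:40279422-40279521, minus strand) encodes an accessory subunit of the membrane arm of complex I. Atp5k (chr5:108434400-108434499, minus strand) encodes subunit e of the ATP synthase, and Sdhb (chr4:140961171-140961270, plus strand) the iron-sulfur subunit of complex II. Atp5g2 (chr15:102671048-102671147, minus strand) encodes 1 of the precursors of subunit c, which forms the rotor ring of the ATP synthase.
Ndufb6: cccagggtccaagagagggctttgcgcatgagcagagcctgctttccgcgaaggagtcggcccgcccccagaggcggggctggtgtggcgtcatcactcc
Atp5k: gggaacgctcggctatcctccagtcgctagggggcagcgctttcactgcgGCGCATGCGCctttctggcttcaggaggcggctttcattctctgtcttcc
Sdhb: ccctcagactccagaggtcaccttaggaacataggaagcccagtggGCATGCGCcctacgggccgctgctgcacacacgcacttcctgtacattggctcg
Atp5g2: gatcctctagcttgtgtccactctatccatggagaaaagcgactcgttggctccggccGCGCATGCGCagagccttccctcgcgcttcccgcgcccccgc

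Motifs were searched on both strands, from 250 bases before to 50 after the start, in the RefSeq promoters of the 77 members and of 27025 genes. A gene counted when any of its promoters held the letters. The 27025 genes include the members and were not filtered by expression. The NRF1 core letters GCATGCGC were found for 12 members (15.6%) and for 3.05% of all genes. The YY1 letters AAGATGGC were found for 11 (14.3%) and for 3.19%. The ETS letters CCGGAAGT (6.49% against 4.31%) and the SP1 letters GGGGCGGGG (14.3% against 12.9%) stood nearer to the share of all genes, and the TATA letters TATAAA were found for 9.09% against 15.7%. The same NRF1 letters stand before Atp5k, whose estimate in FAD cortex was below 0, and before Atp5g2, whose estimate was above 0. A match of letters is a description and shows no binding.

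In cortex, 5 genes of complex I were called lower in FAD IgG mice than in WT mice, and most other respiratory chain genes had estimates below 0 that did not pass. The estimate of Atp5k, of complex V, was as large as those of called genes. Whether complex I fell more than the other complexes was not tested. Of all counts in a WT cortex, 3.64% at the lowest, 4.23% at the median and 5.02% at the highest fell in the 91 members (mean 4.40% ± 0.443, SD, n = 9). In FAD IgG cortex the share was 3.19% at the lowest, 3.68% at the median and 4.33% at the highest (3.76% ± 0.481, n = 7). The groups overlap, and the median FAD IgG well lies just above the lowest WT well. FAD CD38 cortices held 3.06%, 3.70% and 4.25% in the same order (3.68% ± 0.363, n = 7). Taken over counts without mitochondrially encoded and ribosomal RNA genes, the mean shares were 5.07% in WT, 4.26% in FAD IgG and 4.14% in FAD CD38. In this bulk tissue, fewer cells of a type and less RNA per cell cannot be told apart.

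**Figure D1:**
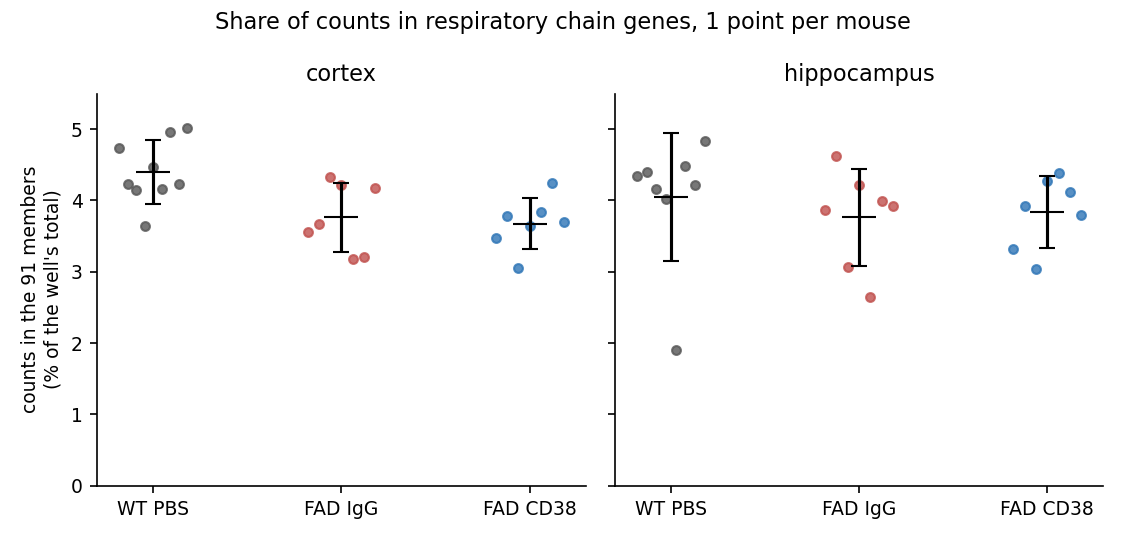
Percent of each well's counts that fell in the 91 members (y axis, from 0) by group, with cortex on the left and hippocampus on the right; each point is a mouse, and the bar and whiskers are the mean and SD. In cortex the FAD groups average 3.76% and 3.68% against 4.40% in WT with overlapping points, and in hippocampus 1 WT well lies alone at 1.90%.

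A gene was called when its adjusted p in edgeR's quasi-likelihood test, over all genes of the region and with the pool in the model, was below 0.05. For FAD IgG against WT in cortex, 5 of 91 members were called lower, where 0.532% of 12968 genes were, and 0 were called higher, where 3.34% were. The median log2 difference over the members was -0.29, against 0.01 over all genes tested, and 87 of 91 estimates were below 0. At an unadjusted p under 0.05, 50 members were lower, where 6.67% of all genes were, and 0 were higher. No member had groups that did not overlap, a count that was not made over all genes.

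The 5 called genes all belong to complex I, the entry point for electrons from NADH. Ndufb6 ran from 114.6 CPM through a median of 148.1 to 182.9 in WT cortices and from 103.1 through 116.6 to 140.6 in FAD IgG, and all 7 FAD IgG wells lay below the WT median. It fell by 27.0% (log2 difference -0.45 ± 0.10, SE, adjusted p = 0.00894). Ndufc1 and Ndufc2 encode small accessory subunits of the membrane arm. Ndufc1 had 390.4, 512.4 and 715.5 CPM in WT (lowest, median, highest) and 319.4, 396.4 and 454.6 in FAD IgG, a log2 difference of -0.49 ± 0.12 (adjusted p = 0.0174). Ndufc2 had 364.8, 400.1 and 483.4 CPM in WT and 282.5, 316 and 378.5 in FAD IgG, a log2 difference of -0.39 ± 0.10 (adjusted p = 0.0142). Of the 7 FAD IgG wells, 5 were below every WT well for Ndufc2, the most of the 5 genes.

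The other 2 called genes belong to the matrix arm, which takes the electrons from NADH and hands them to ubiquinone. Ndufv2, an iron-sulfur subunit at the site where NADH is oxidised, had 510.2, 710.1 and 785.5 CPM in WT and 389.5, 551.8 and 593.8 in FAD IgG (-0.43 ± 0.12, adjusted p = 0.0349). Ndufa5, an accessory subunit, had 723.1, 951.8 and 1147 CPM in WT and 550.8, 749.9 and 829.3 in FAD IgG (-0.43 ± 0.12, adjusted p = 0.048). For both genes all 7 FAD IgG wells were below the WT median and the ranges overlapped. Leaving out any 1 of the 7 pools moved the count of 5 by more than 1.5 times, to 0 without pool 5 or pool 9, 1 without pool 11 and 2 without pool 6. It was 3 without pool 8 or pool 10, and 20 without pool 7. Within pools, Ndufb6 and Ndufc2 were lower in FAD IgG in 6 of 6 pools. Ndufc1, Ndufv2, Ndufa5 and the mean log2 CPM over all members were lower in 5 of 6, with pool 7 higher (0.12 for all members).

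**Figure D2:**
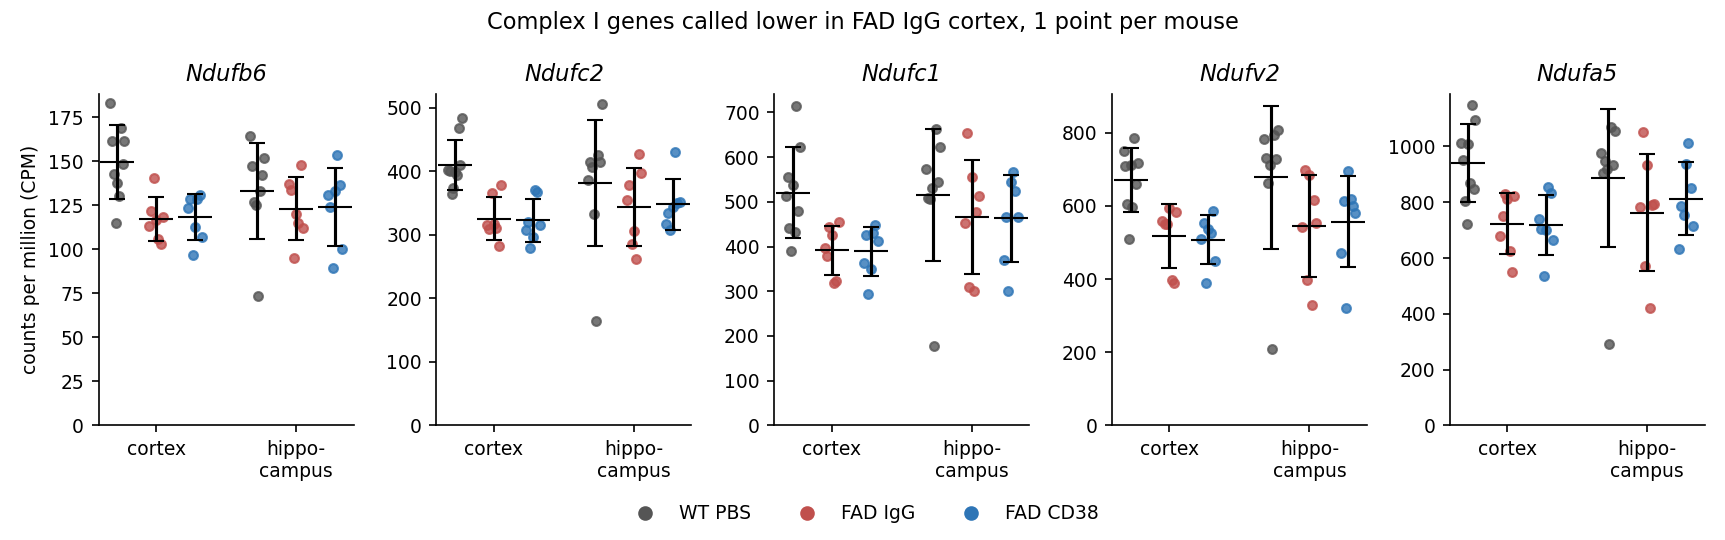
CPM of the 5 complex I genes called lower in FAD IgG cortex (y axis, from 0), by region and group, 1 point per mouse with mean and SD. In cortex both FAD groups sit lower than WT with overlapping ranges, and in hippocampus 1 WT point is the lowest of its group for each of these genes.

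Complex I as a whole had a median log2 difference of -0.33 in FAD IgG cortex, with 35 of 35 estimates below 0. Its 18 membrane-arm genes had a median of -0.34 and its 16 matrix-arm genes -0.26. In complex II, which feeds electrons from succinate, 4 of 4 estimates were below 0 (median -0.19) and none was called. Sdhb had 357.8, 432.1 and 513.2 CPM in WT and 246.3, 395.1 and 472.8 in FAD IgG (-0.30 ± 0.11, adjusted p = 0.155). In complex III, which passes electrons from ubiquinol to cytochrome c, 7 of 8 estimates were below 0 (median -0.25). Its small subunits had a median of -0.31 and its core and Rieske subunits -0.11. Uqcrc2, a core subunit, was at 0.03.

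In complex IV, cytochrome c oxidase, 13 of 15 estimates were below 0 (median -0.25). The 10 common isoforms had a median of -0.26, while the tissue isoforms differed among themselves. Cox6a2, known as the isoform of heart and skeletal muscle, ran from 28.9 through 44.0 to 54.4 CPM in WT cortex and from 33.3 through 53.3 to 64.9 in FAD IgG (0.15 ± 0.13, adjusted p = 0.634). Cox6b2, known from testis, was at 0.11, and Cox7a2l, a factor that joins complexes III and IV into supercomplexes, at -0.00. In the ATP synthase 16 of 17 estimates were below 0 (median -0.25). Its membrane part had a median of -0.36 and its peripheral stalk, which holds the enzyme's head still, -0.33, while the catalytic head was at -0.13 and the c ring at -0.15. Atp5k had 718.8, 951 and 1347 CPM in WT and 579.9, 697.7 and 941.2 in FAD IgG (-0.49 ± 0.15, adjusted p = 0.0645).

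Subunit c is made from 3 genes whose mature proteins are identical, and these did not share 1 sign. Atp5g2 had 61.9, 74.5 and 81.5 CPM in WT cortex and 70.0, 80.3 and 94.0 in FAD IgG (0.17 ± 0.11, adjusted p = 0.514), and 3 of 7 FAD IgG wells exceeded every WT well. Atp5g1 had 640 ± 82.3 CPM in WT (SD, n = 9) and 565 ± 111 in FAD IgG (n = 7), with a log2 difference of -0.25 (adjusted p = 0.327). Atp5g3 was at -0.15. The difference between these genes was not tested. All 12 assembly factors were below 0 (median -0.22), and Ndufaf2, a chaperone of complex I, was nearest to the threshold (-0.35, adjusted p = 0.0924).

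For FAD CD38 against WT in cortex, 16 members were called lower, where 1.23% of 12968 genes were, and 0 higher, where 3.3% were. The median over the members was -0.32 and 88 of 91 estimates were below 0. At an unadjusted p under 0.05, 60 members were lower, where 8.39% of genes were, and 0 were higher. Complex I gave 10 of the calls: Ndufc2, Ndufc1, Ndufb6, Ndufv2, Ndufb9, Ndufa5, Ndufs5, Ndufs6, Ndufb4 and Ndufa12, from -0.41 to -0.51. Ndufb9, a membrane-arm subunit, had 311.8, 402.7 and 512.3 CPM in WT and 245.5, 302.1 and 333.4 in FAD CD38 (-0.51, adjusted p = 0.0172), and 5 of 7 FAD CD38 wells were below every WT well.

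Complex IV gave 3 of these calls: Cox7b, Cox7a1 and Ndufa4, a subunit once assigned to complex I. Cox7b had 597.9, 743.6 and 794.8 CPM in WT and 465.4, 538.6 and 621.4 in FAD CD38 (-0.44, adjusted p = 0.035), with 6 of 7 FAD CD38 wells below every WT well. Cox7a1, known as a heart and muscle isoform, was low in this tissue, at 6.86, 9.00 and 13.7 CPM in WT and 4.74, 6.36 and 7.09 in FAD CD38. Its fall of 42.1% (-0.79 ± 0.21, adjusted p = 0.0261) was the greatest among the members. The ATP synthase gave Atp5k (-0.54, adjusted p = 0.0224) and Atp5j2, the gene of subunit f (-0.46, adjusted p = 0.0387). These are 2 of the 5 genes of its membrane part, whose median was -0.46, while the catalytic head was at -0.08. The last call was Ndufaf2 (-0.37, adjusted p = 0.0488). The count of 16 was 0 without pool 8, and 38 without pool 10. It was 2 without pool 9 or pool 11, 3 when pool 5 was left out and 5 when pool 6 was.

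**Figure D3:**
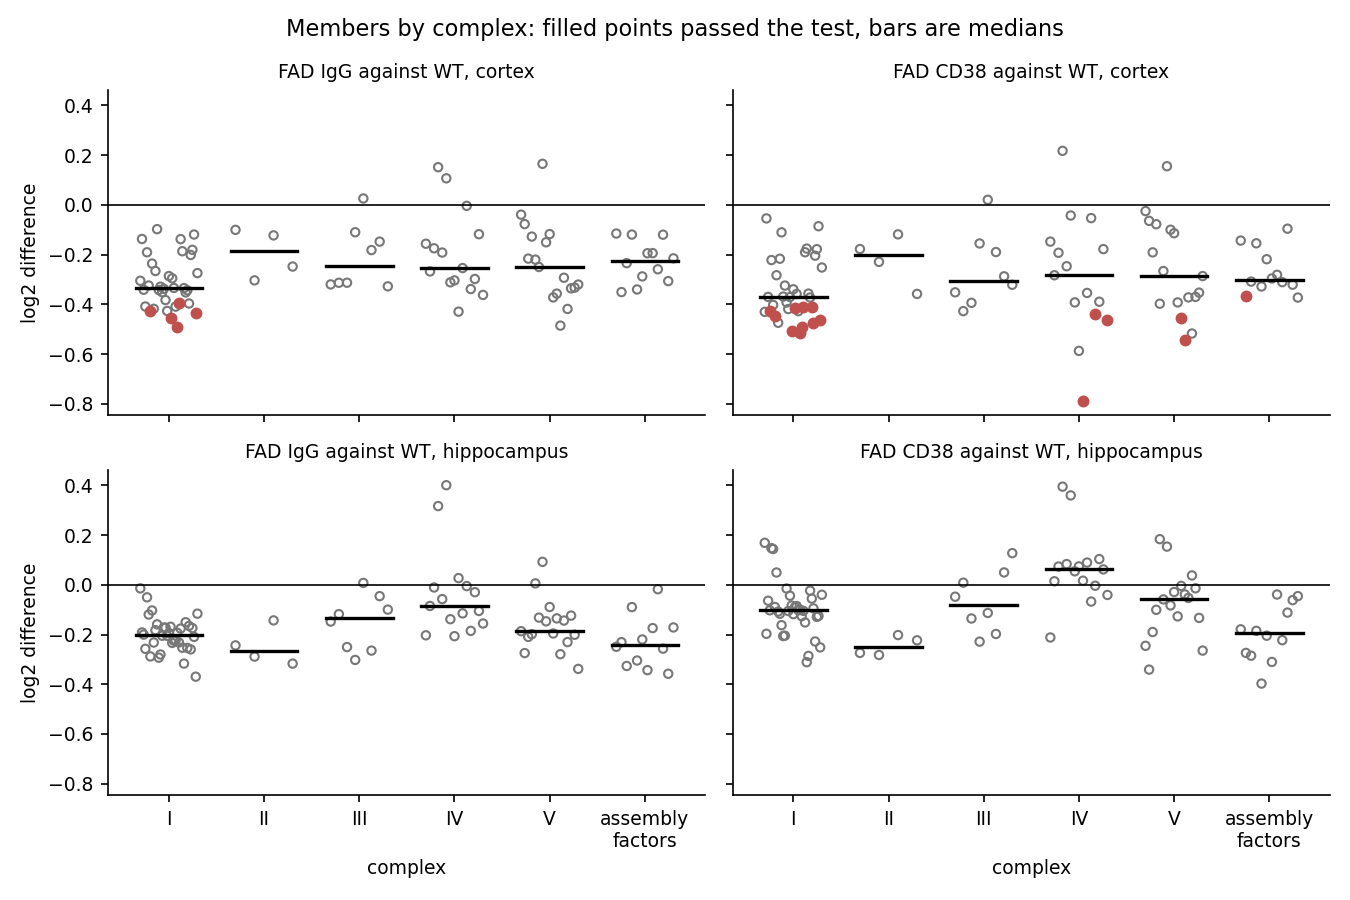
Log2 difference of each member (y axis) by complex (x axis) for FAD IgG and FAD CD38 against WT, in cortex (top) and hippocampus (bottom); filled points passed the test, open points did not, and bars are medians. In cortex the medians of all 6 groups lie below 0 in both comparisons, and in hippocampus complex IV of FAD CD38 has its median at 0.06.

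FAD CD38 and FAD IgG mice were then compared with each other, the contrast that the injection alone sets apart. No member was called in either region, as no gene was (0% of 12968 in cortex and of 12728 in hippocampus), by edgeR's quasi-likelihood test, and 0 members had an unadjusted p under 0.05. DESeq2 called 0 members as well. In cortex the estimates ran from -0.36 for Cox7a1 to 0.08, with a median of -0.03, and in hippocampus from -0.20 to 0.30 for Sdhaf3, with a median of 0.08. The cortical median turned to 0.04 without pool 7 and was -0.09 without pool 10 and -0.07 without pool 9, and the hippocampal median was 0.01 without pool 9, 0.03 when pool 8 was left out, 0.15 when pool 7 was, and 0.13 when pool 5 or FAD CD38 replicate 4 was. It was 0.05 without WT replicate 9. All 91 intervals included 0 in both regions. The median 95% interval ran from -0.28 to 0.23 in cortex and from -0.25 to 0.43 in hippocampus. Differences within such a range are not excluded for a typical member. The smallest difference that could be called after adjustment over all genes was not computed. For Ndufb6 the difference was 0.04 ± 0.11 in cortex and 0.08 ± 0.13 in hippocampus. Within pools, the mean log2 CPM over members was lower in FAD CD38 in 4 of 6 pools in cortex (-0.47 in pool 7 to 0.44 in pool 10) and in 3 of 6 in hippocampus (-0.58 in pool 7 to 0.62 in pool 9).

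In hippocampus no member was called for FAD IgG against WT, where 0.416% of 12728 genes were called lower and 4.48% higher. By DESeq2, 1 was called lower. The median over members was -0.19 with 85 of 91 below 0, and 6 members were lower at an unadjusted p under 0.05, where 5.48% of genes were. Without the hippocampus of WT replicate 9, 22 were, still with 0 called and a median of -0.20. The share of all genes in that fit is not given, so the 22 cannot be set against it. The member of smallest p was Uqcrfs1, the Rieske iron-sulfur protein of complex III. It had 148.2, 225.5 and 262 CPM in WT and 179.9, 190.9 and 220.4 in FAD IgG (-0.26 ± 0.09, adjusted p = 0.116). All 7 FAD IgG wells were below the WT median, though the lowest WT well, replicate 9, was below them all. By complex the medians were -0.20 for complex I (35 of 35 below 0), -0.27 for II, -0.13 for III, -0.09 for IV, -0.19 for V and -0.24 for the assembly factors.

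FAD CD38 against WT in hippocampus gave 0 calls too, where 0.754% of genes were called lower and 4.56% higher, and DESeq2 called 2 members lower. The median was -0.10, with 70 of 91 below 0. At an unadjusted p under 0.05, 7 members were lower, where 7.15% of genes were, and 1 was higher. Complex IV had its median at 0.06, with 4 of 15 below 0, while the assembly factors were at -0.20 with 12 of 12 below 0. Without the hippocampus of WT replicate 9 the median was -0.15 and 2 members were called lower. Without FAD CD38 replicate 4, whose mitochondrially encoded share was lowest, it was -0.03 with 0 calls and 58 below 0. It was -0.21 when pool 8 was left out, -0.05 when pool 11 was and -0.06 when pool 5 or pool 7 was, and it turned to 0.13 with the mitochondrially encoded share of counts as a covariate. Ndufaf5, an enzyme of complex I assembly that hydroxylates a matrix-arm subunit, was nearest to the threshold (-0.40, adjusted p = 0.0813).

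Cox6a2 had estimates above 0 in hippocampus, with 10.7, 26.5 and 30.8 CPM in WT, 23.0, 32.8 and 36.3 in FAD IgG and 17.5, 34.2 and 36.8 in FAD CD38. In each FAD group 5 of 7 wells were above every WT well, but neither difference passed (0.32, adjusted p = 0.396, and 0.39 ± 0.16, adjusted p = 0.188). Over the mean of both regions it was 0.30 for FAD CD38 against WT (adjusted p = 0.0508 in limma).

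With both regions of each mouse in 1 limma fit, 10 members were lower in FAD IgG than in WT over the mean of both regions, where 2.11% of 13447 genes were, and 0 higher, where 5.93% were. Atp5pb, subunit b of the peripheral stalk, had the smallest p (-0.33, adjusted p = 0.00778), and in cortex 6 of 7 FAD IgG wells were below every WT well. The others were Ndufb6 (-0.31), Ndufc2 (-0.32), Ndufv2 (-0.41) and Ndufb10 (-0.31) of complex I, Sdhb (-0.31), Uqcrfs1 (-0.23), and the assembly factors Ndufaf5 (-0.33), Ndufaf3 (-0.29) and Ndufaf2 (-0.30). For FAD CD38 against WT, 7 members were lower, where 2.92% of genes were, and 0 higher, where 5.84% were. Ndufaf5 had the smallest p (-0.37, adjusted p = 0.0047), followed by Ndufaf3, Ndufaf2, Atp5pb, Uqcrfs1, Sdhd and Ndufb6. The first count was 0 without pool 9 or pool 11 and 33 without pool 8, the pool of WT replicate 9, and the second was 0 without pool 11 and 29 without pool 8. No member differed between regions in its response (0 of 91, where 0.208% of genes did for FAD IgG against WT and 0% for FAD CD38 against FAD IgG). At an unadjusted p under 0.05, 2 members differed between regions for FAD IgG against WT and 0 for FAD CD38 against FAD IgG. Ndufb6 had an estimated difference of 0.28 between regions (adjusted p = 0.575).

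The 2 regions were compared within 22 mice. In hippocampus 11 members were lower than in cortex, where 22.1% of 12439 genes were, and 1 was higher, where 23.2% were. So fewer members were called than the share of all genes, and their median was -0.07 against 0.02. Cox6a2 differed most: cortices ran from 28.9 through 51.0 to 64.9 CPM and hippocampi from 10.7 through 30.3 to 36.8, lower in 22 of 22 mice (-0.80 ± 0.06, adjusted p = 4.75e-14). Its paralog Cox6a1, the common isoform, ran from 1027 through 1259 to 1592 CPM in cortex and from 546 through 1134 to 1350 in hippocampus, lower in 18 of 22 mice (-0.24, adjusted p = 0.00326). Pvalb, the calcium-binding protein of fast-spiking interneurons, differed by -0.84 in the same test (adjusted p = 4.00e-14), and its part in the Cox6a2 difference was not tested. Pvalb is 1 of 8 listed interneuron genes and was chosen after its value was seen, and the others are not described here.

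The other calls described were smaller and spread over the complexes. Complex I gave Ndufa9, of the matrix arm (-0.28, lower in 17 of 22 mice). Complex IV gave Cox5a (-0.27) and Cox7a2l (-0.18), complex II Sdhc (-0.18), and complex V Atp5a1 (-0.24) and Atp5pb (-0.14). The assembly factors Ndufaf7 (-0.28, lower in 20 of 22) and Ndufaf1 (-0.27), both of complex I, were also lower. Ndufa10, of the membrane arm, was the gene that was higher (0.13 ± 0.05, adjusted p = 0.0387, in 16 of 22 mice), and this call was lost in 9 of 12 alternatives. Of the 11 mitochondrially encoded genes tested, 9 were lower in hippocampus (median -0.31).

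**Figure D4:**
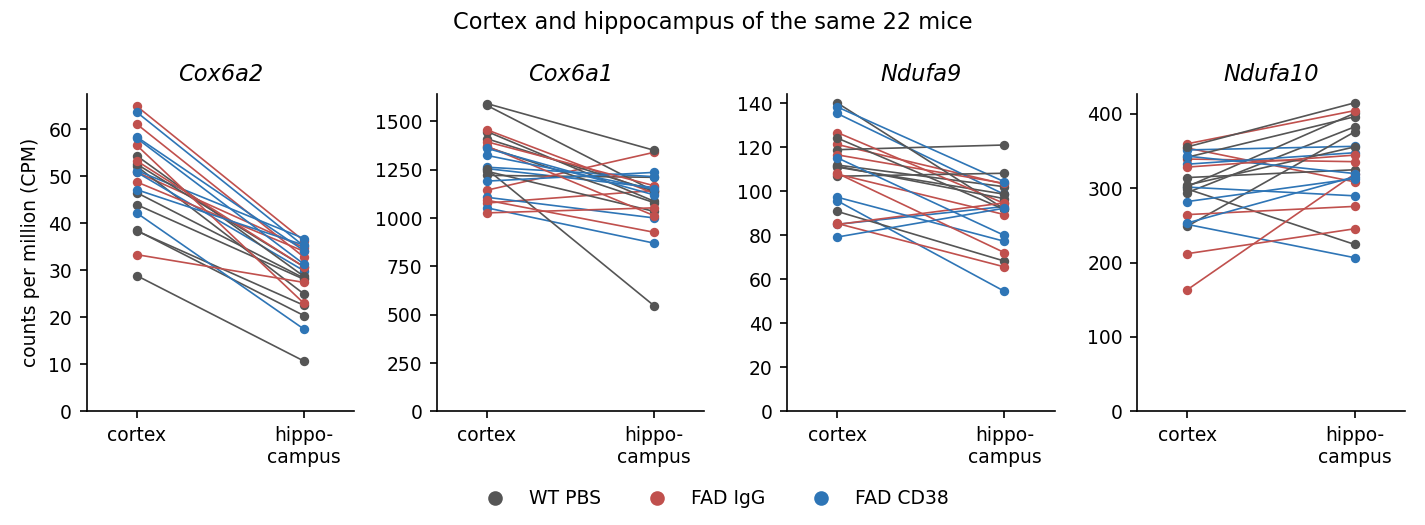
CPM (y axis, from 0) of Cox6a2, Cox6a1, Ndufa9 and Ndufa10 in cortex and hippocampus, with a line joining both regions of each of 22 mice, coloured by group. Cox6a2 falls along all 22 lines, Cox6a1 along 18 and Ndufa9 along 17, and Ndufa10 rises along 16.

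How the members differ among themselves was set against transcript length, as the median of a gene's protein-coding transcripts in GENCODE M21, known for 88 of the 91 (321.5 to 4323 bases, median 681.5). Every annotated transcript counted alike, including any partial ones, and none was weighted by expression. A member's length here can thus differ from that of its main RNA, and its side of the 800-base cut is approximate. In cortex, members under 800 bases had a median of -0.37 for FAD CD38 against WT and longer ones -0.22, while other genes had -0.04 and 0.03. In hippocampus the order was the opposite, with -0.04 for the 51 short and -0.19 for the 37 long members, and 0.00 for other genes on both sides. Spearman's rho across the 88 genes, which share wells and are no independent replicates, was 0.43 in cortex and -0.61 in hippocampus. It was 0.32 and -0.37 for FAD IgG against WT, where leaving out pool 5 or pool 11 gave 0.16 or 0.19 in cortex and leaving out pool 6 gave -0.21 in hippocampus. It was 0.22 and 0.20 across other genes for FAD CD38 against WT. The hippocampal rho of -0.61 was -0.55 without WT replicate 9 and -0.54 without FAD CD38 replicate 4. The hippocampal medians of short and long members were -0.10 and -0.21 without the first well and -0.00 and -0.09 without the second. Leaving out any 1 pool moved the short members' median by more than 1.5 times, from -0.17 (pool 8) to 0.00 (pool 11). With the mitochondrially encoded share of counts in the model, the cortical rho of 0.43 was 0.00 and that for FAD IgG against WT was -0.26, while the hippocampal rho was -0.52 for FAD CD38 and -0.28 for FAD IgG against WT.

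**Figure D5:**
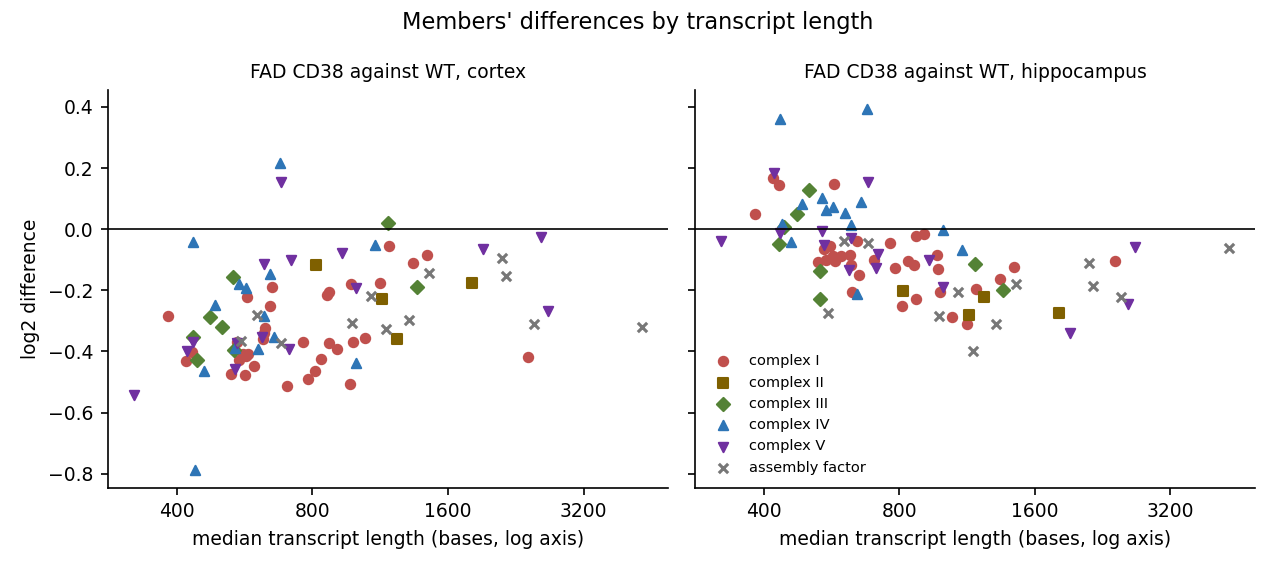
Log2 difference of FAD CD38 against WT (y axis) by median transcript length in bases (x axis, log scale) for 88 members, by complex, in cortex (left) and hippocampus (right). Short members lie lower than long ones in cortex (medians -0.37 and -0.22 on either side of 800 bases) and higher in hippocampus (-0.04 and -0.19).

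The neighbouring pathways of FAD IgG against WT cortex were counted from written lists. Of the protein genes encoded in mitochondrial DNA, which supply the core of the same complexes, 11 of 11 were below 0 (median -0.41), 0 were called and 7 had an unadjusted p under 0.05. Their share of counts was 7.23% ± 0.88 in WT cortex (n = 9), 5.77% ± 0.672 in FAD IgG (n = 7) and 5.99% ± 0.659 in FAD CD38 (n = 7). With that share as a covariate the members' median was -0.10 for FAD IgG and -0.17 for FAD CD38 against WT, with 0 called in both. In hippocampus the same covariate moved the median from -0.19 to -0.04 for FAD IgG against WT and turned it from -0.10 to 0.13 for FAD CD38 against WT. Genes with Mrpl or Mrps symbols, most of them for mitochondrial ribosomal proteins, had 69 of 76 below 0 (median -0.19). Of these, 2 were called lower, Mrps36 (-0.52, adjusted p = 0.00267) and Mrpl13 (-0.47, adjusted p = 0.0418). They were taken by symbol alone, and whether each protein, Mrps36 included, belongs to the ribosome was not checked. The electron carriers and other entry points had 13 of 16 below 0 (median -0.17) and 0 called, with Cycs, the cytochrome c gene, at -0.41 (adjusted p = 0.0875). The TCA cycle was at -0.11 (15 of 18 below 0), the assembly factors of other names at -0.16 (23 of 32) and the regulators of mitochondrial biogenesis at -0.02 (8 of 14). An unadjusted p under 0.05, in either direction, was found for 27 of the 76 Mrpl and Mrps genes and 10 of these 32 assembly factors. It was found for 1 of the 16 electron carriers and entry points and 0 of the 18 TCA cycle genes. None of these regulators was called or had an unadjusted p under 0.05, with Ppargc1a at -0.08, Tfam at -0.17, Nrf1 at 0.14 and Gabpa at 0.31.

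Cell markers moved in the same cortices. Of 12 microglial markers 10 were higher in FAD IgG (median 1.76), and their summed level ran from 565 to 761 CPM in WT, 1933 to 2950 in FAD IgG and 1742 to 3061 in FAD CD38. Of 15 neuronal markers 1 was called higher, Thy1 (2.21), and their median was 0.09, and of 10 astrocytic markers 3 were higher (median 0.24). Whether the Thy1 counts came from the mouse's own gene or from the transgene, whose promoter the labels do not name, was not tested. The 6 striatal markers were all below 0 (median -0.78) with 0 called, and 4 had an unadjusted p under 0.05. They summed to 230 to 497 CPM in WT, 140 to 404 in FAD IgG and 125 to 339 in FAD CD38. The part of microglial RNA, of striatal or choroid plexus tissue in the dissection and of RNA quality in the members' differences was not tested.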

How the data were processed

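The authors deposited 1 table of raw counts, whole numbers for each gene symbol in each well. Per the submitters' processing notes, the authors used bcl2fastq 2.17 and STAR 2.5.3a among other tools. The build, the annotation, the counting program and the handling of molecular identifiers are not stated in the sources used here. The deposited samples are pools, and each well's mouse, region, genotype and injection were taken from the deposited sample sheet.

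Each region was fitted across all genes by the robust quasi-likelihood test of edgeR 4.0.16 (R 4.3.3, TMM factors, genes kept by filterByExpr at a count of 10 and a total of 15), with pool as an additive term and the 3 groups in 1 fit. Limma 3.58.1 (voom, wells of a mouse correlated) gave the mean of both regions and their difference, and edgeR with a term per mouse compared hippocampus with cortex. Tests were two-sided, with Benjamini-Hochberg adjustment over all genes tested and a threshold of 0.05. The replicate was the mouse. The code was tested on simulated data with the same spread for all genes and no pool effect. That test does not measure how well the calls reported here hold. CPM are counts scaled to the well's total, and mean log2 CPM used a prior count of 2. With totals of 1270918 to 5101368 counts per well, genes of a few CPM rest on few counts. Genes with near-identical copies, such as Cox6c2, are uncertain, since the counting rule is not known.

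Named genes were those called in any comparison, per complex the member of highest CPM in WT cortex and of smallest p for FAD IgG against WT in each region, the 3 most different between regions each way, the 3 of smallest p for FAD CD38 against FAD IgG in each region, the isoform families Cox4i, Cox6a, Cox6b, Cox7a, Cox8, Ndufa4 and Atp5g, and members above 0 in both regions for FAD IgG against WT. Genes of other lists that are named (Pvalb, Thy1, Cycs, Mrps36, Mrpl13 and the biogenesis regulators) were chosen after their values were seen. One gene that the rule names is not reported here. The members, lists and tests were chosen with earlier results of these data known. Alternatives were DESeq2 1.42.0, RLE factors, other filters, no pool term, 2 groups only, mitochondrial and ribosomal RNA genes left out, voom with quality weights, ribosomal RNA or mitochondrially encoded share as covariate, wells of ribosomal RNA share above 15% left out, the mouse of conflicting labels counted either way and each pool left out. Leaving out the FAD CD38 well of lowest mitochondrially encoded share was chosen after seeing the data.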

Additional observations from a re-analysis of the deposited data

Results flagged for a closer look

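Of 132 sets of wells looked at for a single well far from its group (by Dixon's gap), 22 had one, where chance gives about 1 in 20 for independent sets. These sets share wells and genes and are not independent, and most of the 22 fell on the same well, described next. In WT hippocampus 1 well of 8, replicate 9, was lowest for the share of counts in members (1.90%), for the mean log2 CPM over all members (7.02), and for assembly factors (4.62), complex I (7.13), II (6.84), III (7.83), IV (6.98) and V (8.20). It was also lowest for Ndufb6 (73.69 CPM), Ndufc1 (176.6), Ndufv2 (208.3), Ndufa5 (292.7), Atp5g1 (260.6), Uqcrfs1 (148.2) and Atp5pb (295.6), and highest for the share of ribosomal RNA (17.24%).

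In FAD CD38 hippocampus 1 well of 7 was lowest for mitochondrially encoded genes (1.25% of counts), the assembly factors (4.81) and complex II (6.37), and 1 well was lowest for Cox6a2 (17.5 CPM). For Ndufc2, 1 well of the same group was highest (430.1 CPM). In FAD IgG hippocampus 1 well of 7 was highest for Atp5g3 (514.6 CPM).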

How the results depend on the processing

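No called member changed sign under any alternative run. Counts under the alternatives, here and above, are given without the share of all genes called in the same fit. They show how far the calls move, and not whether the members stand out from other genes. For FAD IgG against WT in cortex the 5 lower calls became 13 with DESeq2, 31 with voom quality weights, 14 with the ribosomal RNA share as covariate, 9 once the mouse whose labels conflict was put with IgG, and 0 with 2 groups only or with the mitochondrially encoded share as covariate, when the median was -0.10. For FAD CD38 against WT in cortex the 16 became, in the same order, 37, 47, 52 and, with that mouse put with CD38, 30, then 36 with 2 groups only and 0 with the mitochondrially encoded share, when the median was -0.17. Leaving out each pool gave 0 to 20 and 0 to 38.

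In hippocampus the 0 lower calls for FAD IgG against WT became 1 with DESeq2, 11 with voom quality weights and 3 with the ribosomal RNA share, and 0 to 4 without each pool (4 without pool 8). For FAD CD38 against WT they became, in the same order, 2, 16 and 17, then 2 without wells above 15% ribosomal RNA, 1 without the pool term, 1 once that mouse was put with CD38, and 0 to 5 without each pool (5 without pool 8). Higher calls there became 1 in both comparisons with voom quality weights, with the ribosomal RNA share and with the mitochondrially encoded share. Over the mean of both regions, the 10 and 7 lower calls became 53 and 62 with voom quality weights and 4 and 4 without the pool term, and 0 to 33 and 0 to 29 without each pool. Higher calls became 1 in both with voom quality weights and, for FAD CD38, 1 without the pool term and 0 to 1 without each pool. For hippocampus against cortex, the 11 lower calls became 17 with DESeq2 and 9 to 15 without each pool, and the 1 higher became 2 with DESeq2, 0 with RLE factors, without the mouse block or in WT mice alone, and 0 to 2 without each pool. The cause of these moves was not tested. Depth limits Cox7a1 and Cox6b2, at a few CPM.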
